A study of Caenorhabditis elegans with 6 samples.

Results

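The abu and pqn genes of Caenorhabditis elegans encode proteins rich in glutamine and asparagine, and they were followed here in whole worms exposed to albumin-coated iron oxide nanoparticles. Members were all probe sets whose platform gene symbol is abu or pqn followed by a number. There were 71 such probe sets among 26192 with a gene and 29317 in all. Of these, 14 carried 1 abu gene, 53 carried 1 pqn gene and 4 carried several members. Together they stand for 15 abu and 56 pqn genes, all 71 matched to NCBI RefSeq (assembly WBcel235) with 0 changed symbols. RefSeq lists 69 of them as protein-coding and 2, abu-3 and pqn-11, as pseudogenes.

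The exposed group was wild-type strain N2, kept for 24 h in 50% M9 buffer with 500 µg/mL BSA-SPIONs, superparamagnetic iron oxide particles coated with a single layer of bovine serum albumin (3 arrays). The control group was the same strain kept for 24 h in 50% M9 buffer alone (3 arrays). Both groups were hermaphrodites that had been synchronised by bleaching, grown on plates with Escherichia coli OP50 for 48 h to the L4 larval stage, and held at 20 °C. RNA of whole worms was measured on one-colour Affymetrix arrays, and values are RMA expression values on the log2 scale, on which 1 unit is a doubling. No array had albumin alone or bare particles, so effects of iron oxide and of albumin cannot be told apart. The labels do not say whether replicates came from separate cultures, so p-values describe the scatter among these arrays alone, and that scatter may be technical.

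The name abu stands for "activated in blocked unfolded protein response". These genes were first described in worms under stress of the endoplasmic reticulum (ER) that lacked the normal response, and their products resemble the scavenger receptor CED-1. The name pqn stands for "prion-like, glutamine/asparagine-rich", a feature that also occurs in unrelated proteins, so the pqn genes are less of a family than the abu genes. Many abu proteins and their closest pqn relatives are small secreted proteins expressed in the pharynx, the feeding organ. They contribute to the flexible cuticle that lines its lumen and is rebuilt at each molt, and their transcripts rise and fall with the molting cycle. The labels give the stage as L4, and the worms were a day past that point at harvest. The yolk gene vit-2, made by adult hermaphrodites, was at 12.16 to 12.43 in exposed arrays, against 12.04 to 12.54 in controls, and the adult collagen gene col-19 was at 7.64 to 7.91, against 6.76 to 8.13. A second yolk gene, vit-6, was at 11.86, 11.26 and 11.31 in exposed arrays, against 9.94, 10.22 and 11.46 in controls (log2 change 0.94, adjusted p = 0.224 in limma). In RNA of whole worms, fewer cells of a type and less RNA per cell cannot be told apart.

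Some abu and pqn transcripts were called lower in exposed worms and none was called higher. In limma, with Benjamini-Hochberg adjustment over all 26192 probe sets, 10 of the 71 members had an adjusted p under 0.05, and all 10 were lower in exposed worms. They were 4 of the 14 abu probe sets (28.6%), 6 of the 53 pqn probe sets (11.3%) and 0 of the 4 that carry several members. Over all probe sets tested, 3.66% passed, 2.6% as lower and 1.06% as higher in exposed worms. The smallest adjusted p among the 4 with several members was 0.679, and 0 of them had an unadjusted p under 0.05.

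All 3 exposed arrays lay below all 3 control arrays for 29 members (40.8%), against 13.5% of all probe sets tested. The reverse held for 2 members, pqn-52 and pqn-54, where 14.6% of all probe sets did so. At an unadjusted p under 0.05, 26 members were lower and 2 higher, where 12.4% and 10.1% of all probe sets were. The log2 change had a median of -0.41 over the abu family and -0.36 over the pqn family, against 0.05 over all probe sets tested. Negative changes made up 9 of 14 abu and 38 of 53 pqn values, 64.3% and 71.7%, against 44.7% of all probe sets. These shares describe a set that was chosen with results of these data known.

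Among the abu genes, abu-14 changed most. Its product has been found in the pharyngeal cuticle. It was at 4.94, 5.54 and 4.48 in exposed arrays 1 to 3, against 8.08, 8.05 and 8.22 in control arrays 1 to 3. The groups were 2.51 log2 units apart at their nearest arrays, and the controls lay much closer together than the exposed arrays. The level fell to 4.99 ± 0.53 in exposed worms, against 8.12 ± 0.09 in controls (SD, n = 3 each), a fall of 8.75-fold (adjusted p = 0.00636 in limma).

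The other called abu genes fell by less. For abu-8 the exposed arrays read 3.24, 3.52 and 2.79, against 4.76, 4.84 and 5.31 in controls. This is a 3.45-fold fall with an adjusted p of 0.0200 in limma, and the groups were 1.24 log2 units apart. For abu-11 the values were 4.20, 3.67 and 3.66 in exposed worms, against 5.18, 5.01 and 4.71 in controls. Overexpression of this gene has been reported to extend the lifespan of worms, and here its fall was 2.17-fold (adjusted p = 0.0458 in limma). For abu-12 they were 3.28, 3.80 and 3.54 in exposed worms, against 4.61, 4.72 and 4.59 in controls. The fall was 2.14-fold (adjusted p = 0.0326 in limma), and the control arrays differed among themselves by less than the exposed ones.

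**Figure D1:**
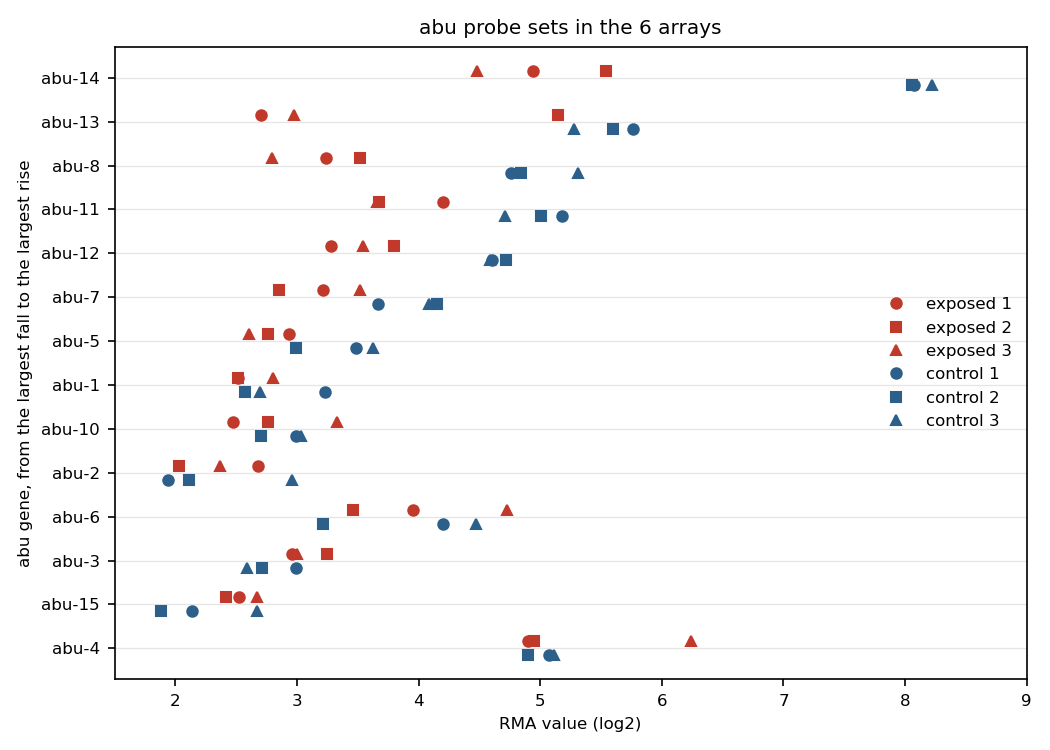
RMA values (log2, horizontal axis) of the 14 abu probe sets that carry 1 gene, a row for each gene, with exposed arrays in red above control arrays in blue and the replicate shown by the symbol. The 7 upper genes have all exposed arrays below all controls, and for abu-13 exposed 2 lies at 5.15, near the controls.

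In 3 more abu genes the groups were separate without passing the adjusted threshold. The largest of these differences was in abu-13, at 2.71, 5.15 and 2.97 in exposed worms, against 5.76, 5.60 and 5.28 in controls. Exposed 2 stood within 0.13 of the lowest control while the other exposed arrays were more than 2 units below it, and the adjusted p was 0.119 in limma. For abu-7 the exposed arrays were at 3.21, 2.85 and 3.52, against 3.67, 4.15 and 4.09 in controls (adjusted p = 0.118 in limma). For abu-5 they were at 2.93, 2.76 and 2.61, against 3.48, 2.99 and 3.63 in controls (adjusted p = 0.171 in limma). The separate groups thus lay as little as 0.06 apart.

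The remaining 7 abu genes had overlapping groups and log2 changes between -0.22 and 0.33. One of them, abu-1, was at 2.52, 2.51 and 2.81 in exposed worms, against 3.23, 2.57 and 2.70 in controls (log2 change -0.22, 95% interval -0.76 to 0.31). In abu-4 a single array stood out. It read 4.90, 4.95 and 6.24 in exposed worms, against 5.08, 4.90 and 5.11 in controls, so exposed 3 alone lay above the others. For abu-6 the exposed arrays were at 3.95, 3.46 and 4.73, against 4.20, 3.21 and 4.47 in controls, and in both groups the array numbered 3 was highest and the array numbered 2 lowest. The other 4, abu-10, abu-2, abu-3 and abu-15, stayed between 1.88 and 3.33 in all 6 arrays.

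The calls were also counted by the brightness of the probe sets. Of the 14 abu probe sets, 7 had a mean over the 6 arrays above the median of all probe sets, and the 4 called genes were among them. That mean includes the controls, so a gene that fell can pass through its control values. In exposed worms abu-8 and abu-12 averaged 3.18 and 3.54, against 4.97 and 4.64 in controls. Medians of the exposed arrays were 3.70 to 3.89. Of the 53 pqn probe sets, 38 lay above that median, with 5 of the 6 calls (13.2% called above it, against 6.67% at or below it). The smaller share rests on 1 called gene of 15. A fit of the 13096 probe sets above the median alone, with its own adjustment, called 5.54% of them lower. It called 4 abu and 6 pqn probe sets. The fit of all probe sets called 2.6% lower, bright and dim together. Its calls over all probe sets were not counted by brightness, so the member shares by brightness have no matching background.

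Among the pqn genes, 6 were called lower and 0 higher. The steepest fall was in pqn-71, at 4.12, 3.30 and 3.83 in exposed worms, against 6.78, 6.52 and 6.43 in controls. No exposed array came within 2.31 log2 units of a control. The mean fell to 3.75 ± 0.41 in exposed worms, against 6.58 ± 0.18 in controls (SD, n = 3 each), or 7.09-fold, with an adjusted p of 0.00636 in limma.

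The next called pqn genes fell by less. Exposed arrays read 5.36, 4.36 and 5.26 for pqn-74, against 6.47, 6.41 and 6.58 in controls. The fall was 2.81-fold with an adjusted p of 0.0395 in limma, and exposed 2 was the lowest array. For pqn-26 they read 2.94, 3.90 and 3.39, against 4.72, 4.61 and 5.02 in controls. Here exposed 2 was the highest of its group, and the fall was 2.59-fold with an adjusted p of 0.0438 in limma.

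In pqn-29 and pqn-89 the arrays lay close together in both groups. In exposed worms pqn-29 was at 3.07, 2.87 and 3.0, against 4.40, 4.17 and 4.22 in controls, a 2.43-fold fall with an adjusted p of 0.0169 in limma. The gene pqn-89 was at 6.45, 6.63 and 6.45 in exposed worms, against 7.68, 7.76 and 7.53 in controls, a 2.21-fold fall with an adjusted p of 0.0212 in limma. The SD within each group was 0.10 to 0.12 for both genes. In pqn-24 the exposed arrays were at 7.40, 7.17 and 6.94, against 8.29, 8.40 and 7.92 in controls. It was 2.05-fold lower, and its adjusted p of 0.0470 in limma lay nearest the threshold of all 10 called members.

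**Figure D2:**
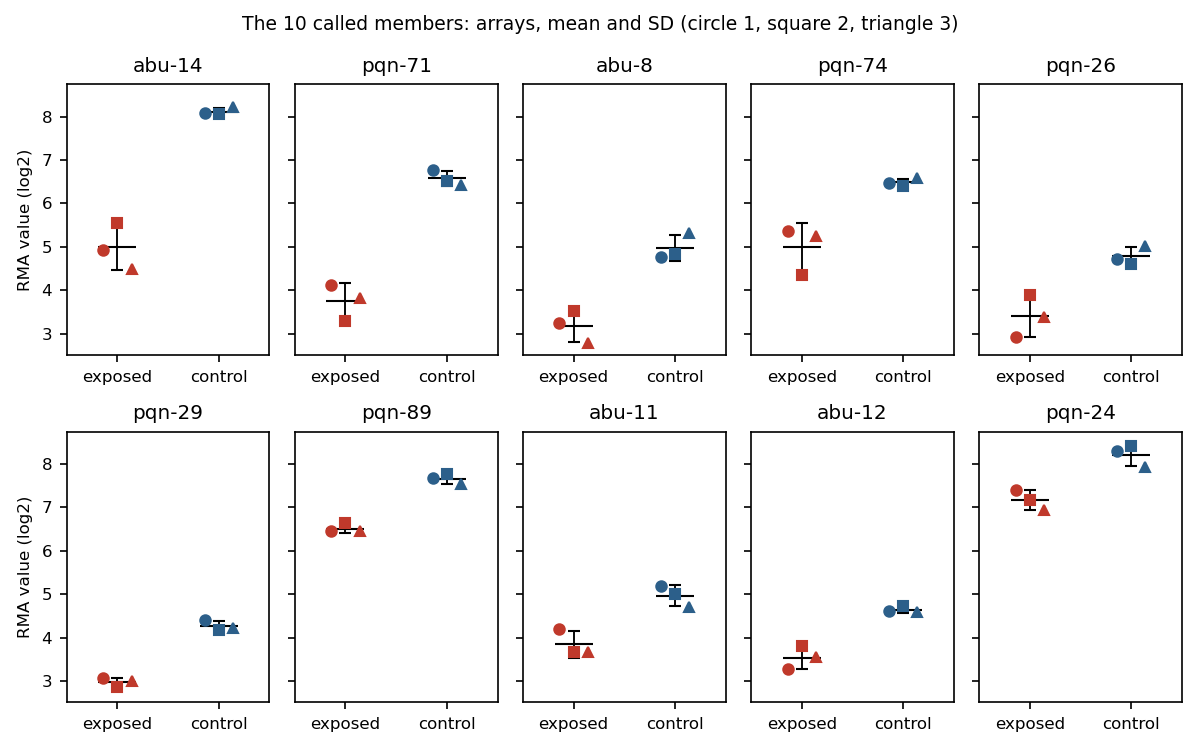
RMA values (log2, vertical axis) of the 10 called members, exposed worms on the left and controls on the right of each panel; points are arrays, the wide bar is the mean and the error bar the SD (n = 3 each). In every panel the highest exposed array lies below the lowest control.

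Several pqn genes had separate groups but did not pass the threshold, and pqn-94 missed it most narrowly. In pqn-94 the exposed arrays were at 8.55, 7.90 and 8.21, against 9.74, 9.72 and 8.98 in controls, with control 3 apart from the other controls (log2 change -1.26, adjusted p = 0.0549 in limma). For pqn-48 they were at 5.92, 4.95 and 4.52, against 6.88, 6.83 and 6.01 in controls (log2 change -1.45, adjusted p = 0.0926 in limma). In both, the lowest control lay above the highest exposed array. The intervals of these 2 changes, -1.91 to -0.61 and -2.39 to -0.51, leave room for small and large falls. In all, 22 pqn genes had every exposed array below every control, and 16 of these did not pass.

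A pair of pqn genes had all exposed arrays above all controls, and neither passed. In pqn-52 the arrays read 7.61, 7.08 and 7.36 in exposed worms, against 6.77, 6.97 and 5.93 in controls, with control 3 the lowest (log2 change 0.79, adjusted p = 0.180 in limma). In pqn-54 they read 3.21, 3.56 and 4.16 in exposed worms, against 2.82, 3.13 and 2.93 in controls (log2 change 0.68, adjusted p = 0.189 in limma). The groups were 0.11 and 0.08 log2 units apart. The third largest positive change, 0.58 in pqn-82, came with overlapping groups: exposed 1 was at 6.64, and the other 5 arrays lay between 5.02 and 5.44. The change in pqn-27 was 0.25.

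Many other pqn genes showed small differences. The gene pqn-59, whose product is the worm relative of the human RNA-binding protein UBAP2L, is read by 1 of the 4 pqn probe sets of highest signal, at 10.44, 10.37 and 9.52 in exposed worms, against 10.27, 10.18 and 9.98 in controls. Its log2 change was -0.03 with a 95% interval of -0.68 to 0.62, and exposed 3 was the lowest array. For pqn-96 the change was -0.31 with an interval of -0.75 to 0.13. For pqn-41, a gene with a role in the death of the male linker cell, it was 0.18 with an interval of -0.31 to 0.68. The gene pqn-75, expressed in pharyngeal glands, was dim in all arrays, between 3.33 and 3.98 in exposed worms and between 3.21 and 3.89 in controls. The gene pqn-21 had a change of -0.21 (interval -0.92 to 0.50).

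**Figure D3:**
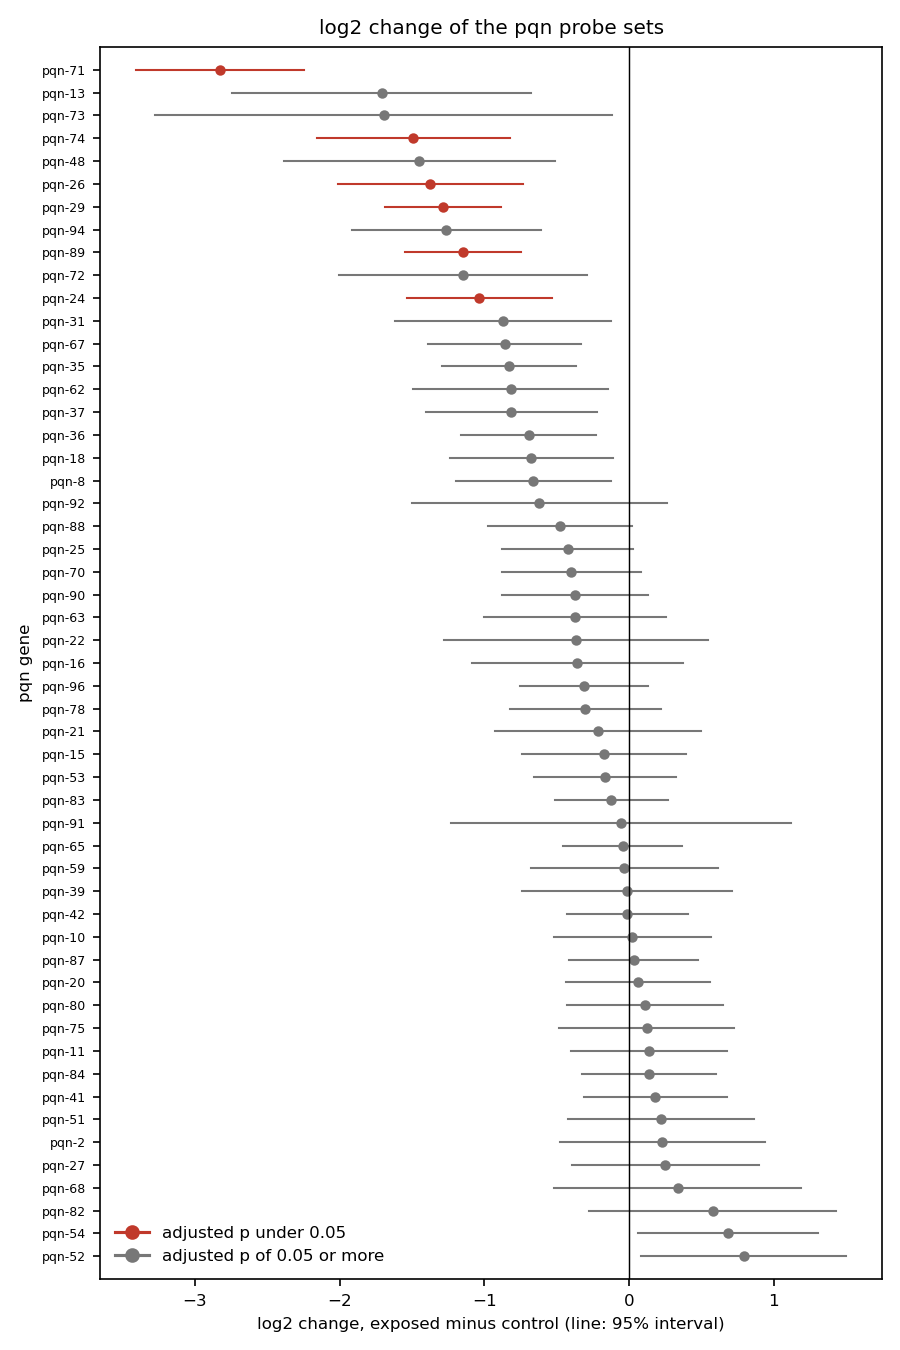
Log2 change, exposed minus control, of the 53 pqn probe sets that carry 1 gene (points) with 95% intervals from limma (lines), ordered from the largest fall to the largest rise. The 6 called genes, in red, all lie left of 0, and pqn-71 at -2.83 stands apart from the rest.

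Exposed 2 differed from the other exposed arrays in 3 members. They are abu-13, pqn-13 and pqn-73, in which exposed 2 was at least 1 log2 unit above both other exposed arrays. That limit was chosen after the values were seen. It was met by 4.23% of the members and by 1.19% of all probe sets tested. For pqn-13 the exposed arrays were at 3.50, 5.11 and 3.38, against 5.76, 5.58 and 5.78 in controls (log2 change -1.71, adjusted p = 0.0799 in limma). For pqn-73 they were at 4.41, 6.58 and 3.64, against 6.34, 6.79 and 6.58 in controls (log2 change -1.70, adjusted p = 0.195 in limma). Exposed 2 thus overlapped the controls in pqn-73 and came close to them in the other 2. Since these genes were picked for a high value of exposed 2, leaving it out had to enlarge their falls: the fit then gave log2 changes of -2.71 for abu-13, -2.26 for pqn-13 and -2.55 for pqn-73 (adjusted p = 0.00725, 0.00738 and 0.0153).

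The same array stood at least 1 log2 unit above the other exposed arrays in 5 of 21 genes on a list for molting and the apical matrix. They were mlt-10, bed-3, grh-1, qua-1 and acn-1. The molting gene mlt-10 was at 4.74, 6.46 and 4.07 in exposed worms, against 7.04, 7.02 and 7.32 in controls. The gene bed-3, which encodes a zinc finger factor needed for molting, was at 3.80, 5.49 and 3.85 in exposed worms, against 6.17, 6.50 and 5.48 in controls. Neither passed (adjusted p = 0.0885 and 0.106 in limma). Exposed 2 was also apart in phat-1 and phat-2 of the pharyngeal gland list, and in 0 of the 7 pharyngeal muscle genes. In phat-4 of the gland list it lay at least 1 unit below the other exposed arrays, at 5.13, against 6.45 and 6.22. Whether the stage or timing of the worms differed between these arrays was not tested.

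**Figure D4:**
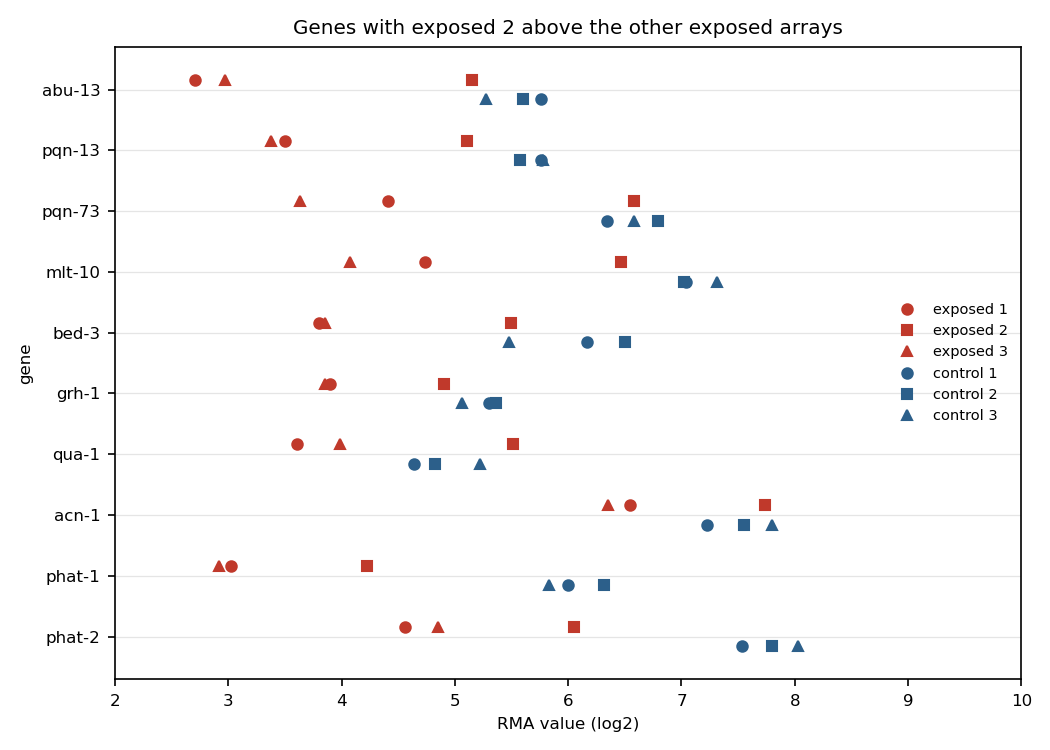
RMA values (log2, horizontal axis) of the 3 members and 7 listed molting and pharyngeal gland genes in which exposed 2 (red square) lay at least 1 unit above exposed 1 and exposed 3; exposed arrays are red and drawn above the blue controls. In abu-13 exposed 2 is at 5.15, against 2.71 and 2.97 in the other exposed arrays.

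Exposed 3 was the array apart in another small set. It lay at least 1 log2 unit above both other exposed arrays in abu-4, pqn-68 and 2 probe sets that carry several members. This is 5.63% of the members, near the 3.44% of all probe sets. The 2 shared probe sets both carry pqn-76 and pqn-79, so they are not separate cases. For pqn-68 the exposed arrays read 7.78, 7.99 and 9.15, against 7.82, 7.85 and 8.23 in controls. Among the pqn genes exposed 3 was otherwise often low: it was the lowest exposed array in 29 of 53, and control 3 was the lowest control in 24. These are 54.7% and 45.3% of the pqn genes, against 38.1% and 37.9% of all probe sets. For exposed 3 the share depended on brightness. It was the lowest exposed array in 68.4% of the 38 pqn probe sets above the median level. Among the 15 at or below that level it was lowest in 20% and highest in 46.7%. The shares of all probe sets were not split by level, so a trait of the pqn genes cannot be read from these counts.

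Several members are neighbours in RefSeq's gene order, and differences between neighbours were not tested. In a cluster of 3 adjacent genes, abu-15 and abu-6 had log2 changes of 0.31 and 0.08 and abu-7 of -0.77. The called gene abu-8 (-1.79) follows abu-7 with 6 protein-coding genes between them. The adjacent genes abu-1 and pqn-2 had changes of -0.22 and 0.23, with overlapping intervals, and the adjacent pqn-90 and pqn-91 had changes of -0.37 and -0.05. A second cluster holds abu-5 (-0.60), pqn-78 (-0.30) and pqn-79 side by side and pqn-76 with 1 protein-coding gene between. A probe set for all 4 read 3.67, 3.03 and 5.08 in exposed worms, against 4.59, 3.77 and 4.66 in controls. The probe set for pqn-76 and pqn-79 read 3.30, 3.29 and 6.02 in exposed worms, against 2.76, 3.92 and 5.11 in controls, so the arrays numbered 3 were the highest in both groups. The adjacent pair abu-9 and pqn-57 is read only by 2 shared probe sets, with log2 changes of -0.11 and 0.18 and overlapping groups. Members of such clusters may cross-hybridise, so values of single genes within them are uncertain.

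Some pharyngeal and neuron transcripts outside the 2 families also fell in exposed worms. Over all probe sets tested, 2.6% were called lower and 1.06% higher, and 12.4% and 10.1% were so at an unadjusted p under 0.05. Of 7 pharyngeal muscle genes, 3 fell and 0 rose, with a median log2 change of -1.29. At an unadjusted p under 0.05 there were 6 lower and 0 higher. Mean levels of this list lay at 5.57 to 6.18 in exposed arrays, against 6.79 to 7.24 in controls. The myosin genes myo-5 and myo-1 fell 2.89-fold and 2.36-fold, and the troponin C gene tnc-2 fell 2.0-fold (adjusted p = 0.0255, 0.0464 and 0.0381 in limma). Of 7 pharyngeal gland genes, 3 fell and 0 rose (4 and 1 at an unadjusted p under 0.05), and the mean lay at 4.97 to 5.50 in exposed arrays, against 6.33 to 6.52 in controls. The gland genes that fell were phat-5 (20.1-fold), phat-1 (6.32-fold) and phat-2 (6.20-fold), at adjusted p = 0.0165, 0.0174 and 0.0209 in limma. The gland gene phat-3 went the other way, at 5.51, 5.70 and 4.73 in exposed worms, against 4.63, 3.60 and 3.81 in controls, with separate groups and an adjusted p of 0.0899 in limma. Of 6 neuron genes, 5 fell and 0 rose (6 and 0 at an unadjusted p under 0.05). The median log2 change of this list was -1.83, and its mean lay at 6.22 to 6.30 in exposed arrays, against 7.54 to 8.45 in controls. Of 3 body wall muscle genes, 0 passed, and 3 were lower at an unadjusted p under 0.05. Their median log2 change was -0.95. The part of any of these cell types in the falls of abu and pqn genes was not tested.

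Of the genes that act on the pharyngeal lining or on molting, 2 passed. The astacin protease gene nas-6, which acts in the grinder of the pharynx, fell 2.76-fold (adjusted p = 0.0165 in limma). It was the only one of 5 listed genes to pass. The chitin synthase gene chs-2, active in the pharynx, was at 3.70, 4.40 and 3.44 in exposed worms, against 4.56, 4.33 and 3.63 in controls (adjusted p = 0.610 in limma). Among the 21 molting and matrix genes, 1 fell and 0 rose (5 and 1 at an unadjusted p under 0.05, where 12.4% and 10.1% of all probe sets were lower and higher). This was nekl-2, which encodes a NIMA-related kinase needed for molting and was 2.45-fold lower (adjusted p = 0.0209 in limma). The molting regulator nhr-23 had a log2 change of 0.10 with an interval of -0.35 to 0.55. Mean levels of this list overlapped, at 6.0 to 6.64 in exposed arrays, against 6.54 to 6.65 in controls.

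A chaperone gene rose on the list of ER stress genes. Of 25 probe sets for 24 genes of the ER unfolded protein response, 1 was higher and 0 were lower in exposed worms, with a median log2 change of 0.23. At an unadjusted p under 0.05, 5 were higher and 0 lower. Over all probe sets tested, 1.06% were called higher and 2.6% lower, and 10.1% and 12.4% were so at an unadjusted p under 0.05. The one that rose was hsp-4, which encodes the ER chaperone BiP and is the classic reporter of this response. It was at 8.18, 8.32 and 8.49 in exposed worms, against 6.97, 7.31 and 6.96 in controls. The rise was 2.38-fold with an adjusted p of 0.0222 in limma, and the groups did not overlap. The other BiP gene, hsp-3, had a log2 change of 0.33 with an interval of -0.24 to 0.90. The sensor genes ire-1, pek-1 and atf-6 had changes of 0.25, -0.27 and -0.35, and the transcription factor gene xbp-1 one of -0.16, with adjusted p-values of 0.405 or more in limma. The gene ced-1, whose product the abu proteins resemble, had a change of -0.12. The receptor gene octr-1, known to repress abu genes through the nervous system, had a change of 0.33, and neither passed (adjusted p = 0.815 and 0.538 in limma).

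**Figure D5:**
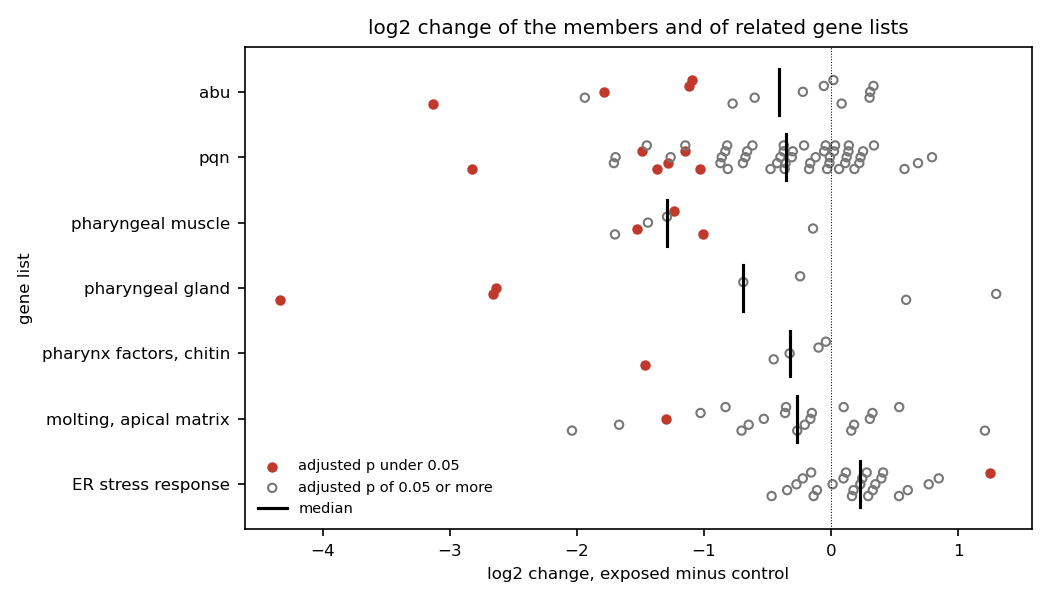
Log2 change, exposed minus control (horizontal axis), of the abu and pqn members and of 5 related gene lists, a point for each probe set, filled red where the adjusted p was under 0.05, with the median as a black bar. Called genes lie left of 0 in every row but that of the ER stress response, where hsp-4 lies at 1.25. The neuron and body wall muscle lists are not drawn.

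Most calls of members were lost when exposed 1, exposed 3, control 1 or control 2 was left out, and few without exposed 2 or control 3. The falls of abu-14 and pqn-71 passed under all 16 alternative settings in limma, with adjusted p-values of 0.00151 to 0.0476 for abu-14 and 0.00165 to 0.0476 for pqn-71. Only these 2 members were called without exposed 1, without control 1 or without control 2, when 0.164%, 0.221% and 0.179% of all probe sets were called lower. Without exposed 3, abu-8 and pqn-29 were called beside them, when 0.89% of all probe sets were called lower. Leaving out exposed 2 lost only the calls of abu-11 and pqn-24, and leaving out control 3 only that of pqn-26. The other called members then stayed called, when 2.1% (without exposed 2) and 5.1% (without control 3) of all probe sets were called lower. With equal array medians, which raise the median log2 change of all probe sets to 0.27, 5 of the 10 stayed called, where 1.45% of all probe sets were lower. The call of hsp-4 was lost without exposed 1, exposed 3, control 1 or control 2, with adjusted p-values up to 0.0967 in limma. Those of nekl-2, nas-6, phat-1, phat-2, phat-5, myo-1, myo-5 and tnc-2 were also lost without exposed 1, control 1 or control 2, and nekl-2, phat-2, myo-1, myo-5 and tnc-2 lost theirs without exposed 3 too. Leaving out exposed 2 ended the calls of the 3 muscle genes as well, and leaving out control 3 that of myo-1. All 10 called members had a negative change under every setting in which they were tested. In all 10, every exposed array lay below every control, so leaving out or averaging arrays could not turn the sign. Without exposed 1, where 8 of them were not called, the log2 change was -1.81 for abu-8 and -1.33 for pqn-29, against -1.79 and -1.28 with all arrays.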

How the data were processed

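The arrays measured RNA of whole worms, 3 exposed and 3 control. The deposited values are log2 expression values that the authors made by RMA, per the submitters' processing notes, which also name Affymetrix Expression Console. RMA subtracts background, equalises the distributions of the arrays by quantiles and summarises the probes. Medians of the deposited values were still unequal, at 3.64 to 3.88 in exposed and 3.92 to 3.95 in control arrays over all 29317 probe sets. The reason was not tested. That the scale is log2 follows from the range of the values. Neither versions nor the array's genome build are given in the sources used here, and no coordinates are printed. Scanner files were not used here. Of 29317 probe sets, the 26192 with a gene in the platform annotation entered the test.

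The deposited values went into limma 3.58.1 (R 4.3.3, lmFit and eBayes) without further scaling. Exposed was compared with control in a two-sided test, p-values were adjusted by Benjamini-Hochberg across all 26192, and the threshold was 0.05. Intervals are 95% intervals from this fit, and this fit was also tested on simulated data. There it recovered 10 of 100 changes of 2-fold and 54 of 100 of 4-fold, among 65 calls, against 959 in the real data. No other probe sets were changed in the simulation, so the Benjamini-Hochberg adjustment was stricter there than in the real data. The recovered shares thus do not measure how many real changes the test finds. A member that did not pass may still have changed. With 3 arrays per group, the number of arrays limits the precision. Array medians over the tested probe sets were 3.70 to 3.89 in exposed and 3.97 to 3.98 in control arrays, and arrays correlated with r of 0.934 to 0.988 over probe sets. The members, lists and settings were chosen with earlier results of these data known. Named are every abu gene read by its own probe set, the called pqn genes, the 6 largest rises and falls and the 4 brightest pqn genes, and pqn-21, pqn-59 and pqn-75. From the lists, called genes and a few regulators were named, and pqn-41, col-19, vit-6, phat-3, the neighbours and the genes in which exposed 2 stood apart were chosen after their values were seen. Lists of adult, sperm, body wall muscle, neuron and receptor genes were also measured. In these, 5 of 6 neuron genes fell, and 0 of 3 adult, 4 sperm, 3 body wall muscle and 2 receptor genes passed, in limma. At an unadjusted p under 0.05, 1 sperm gene was higher, 3 body wall muscle and 6 neuron genes were lower, and 0 adult or receptor genes passed. Protein classes and promoter motifs were not analysed here. One control has the number 3 in its title and 2 in its source label, and the title was followed.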

Additional observations from a re-analysis of the deposited data

How the results depend on the processing

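Of 16 alternative settings, 10 leave out no single array. As deposited, 4 abu and 6 pqn probe sets were called, among 959 in all. Called abu probe sets numbered 2 with equal array medians, after a second quantile normalization, with a mean-variance trend and with controls 2 and 3 averaged. Called pqn probe sets numbered 3 with equal medians and 16 with array weights, when 3473 of all probe sets were called. Leaving out 1 array at a time gave 1 to 4 abu calls, 1 to 9 pqn calls and 49 to 1996 calls in all. Without both arrays numbered 3 there were 2317 calls in all. Among probe sets above the median level the abu median was -1.12, with fewer genes tested. That level is the mean over all 6 arrays, so control values helped genes that fell to pass it.

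Equal medians shifted the median of all probe sets to 0.27, against 0.05 as deposited. The split of all calls was 593 higher and 381 lower with equal medians and 429 and 597 after the second quantile normalization, against 278 and 681 as deposited. With equal medians 5 of the 10 members kept their calls: abu-14, abu-8, pqn-29, pqn-71 and pqn-89.

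Correlations between arrays did not settle whether replicate numbers pair them. Deviations of same-numbered arrays from their group means correlated with r of 0.14, 0.08 and 0.25. Exposed 2 and exposed 3 correlated best with the control of their own number, and exposed 1 best with control 2 (r of 0.19). The replicate block gave 978 calls in all and called 10 members, with pqn-48 in and pqn-26 out.

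Signs turned only in uncalled genes among those followed. In the called genes followed the groups did not overlap, so leaving out arrays could not turn their signs. With equal medians the log2 changes were 0.16 for abu-10, 0.00152 for pqn-21, 0.18 for pqn-59, 0.098 for ced-1 and 0.057 for xbp-1. Array weights gave 0.068 for pqn-59, and the second quantile normalization gave -0.036 for abu-2. Without both arrays numbered 3 the changes were -0.062 for abu-4, -0.000768 for abu-6, -0.14 for pqn-2, 0.045 for pqn-21 and 0.18 for pqn-59. Leaving out 1 array at a time moved abu-10 between -0.29 and 0.13, abu-2 between -0.18 and 0.33, abu-4 between -0.10 and 0.57, abu-6 between -0.29 and 0.38, pqn-2 between -0.11 and 0.45, pqn-21 between -0.41 and 0.095, pqn-59 between -0.20 and 0.26, pqn-68 between -0.085 and 0.60, pqn-75 between -0.059 and 0.32, ced-1 between -0.33 and 0.054, and nhr-23 between -0.023 and 0.17. The causes were not tested.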
